A study of Mus musculus with 6 samples.

Results

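Notch signalling and the lineage choice it controls were examined through 10 genes, out of 52249 in the deposited table, in organoids of mouse intestine, which are epithelial cultures grown from the gut. The genes were picked out of the table by symbol: the receptors Notch1 and Notch2, the ligands Dll1, Dll4, Jag1 and Jag2, the DNA-binding partner Rbpj, the bHLH genes Hes1 and Hes6, and Atoh1, the switch to secretory fate. All 10 were found, and 8 passed the filter on low counts, as did 10687 genes in all. The analysis covered 6 libraries: 3 with the genotype Apc-knockout, called control here, and 3 with Apc-knockout and IGF2BP3 overexpression (IGF2BP3 OE), called OE here. Both groups are thus labelled as lacking Apc, the brake on WNT signalling, and no library with intact Apc was analysed here. IGF2BP3 is an RNA-binding protein. The labels give no strain, age, passage, promoter or vector for its overexpression, and do not say whether replicates were separate cultures. If they were not, the p-values measure only technical spread.

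In the Notch pathway a ligand on one cell (Delta-like or Jagged) binds a Notch receptor on its neighbour. The receptor is then cleaved, and its intracellular part joins RBPJ in the nucleus and switches on repressors such as HES1. In the intestinal crypt, cells with active Notch keep HES1 and stay progenitors or become absorptive, whereas cells that escape it express ATOH1 and DLL1 and become goblet, Paneth, enteroendocrine or tuft cells.

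Total counts ran from 2180087 to 2228062 in control and from 2310216 to 2519886 in OE libraries, so that 3 counts, taken as the limit that a count of 0 allows, corresponded to between 1.18 and 1.41 CPM (CPM, counts per 1000000 of the TMM-scaled library total; counting error only). Igf2bp3 itself had 1, 0 and 0 counts in control against 1, 0 and 0 in the OE libraries, under that limit throughout, so the overexpression label could not be checked and each direction below is that of the libraries as labelled. Apc had 182, 174 and 164 counts in control against 158, 151 and 148 in the OE libraries, or 80.4 ± 4.30 and 62.0 ± 2.37 CPM (n = 3, SD; edgeR log2 fold change -0.37, adjusted p = 0.0323). The labels do not say which part of Apc was altered, and reads near the 3′ end can still be counted when the change lies elsewhere, so these counts do not check the knockout. The spread between replicates, as the biological coefficient of variation, was 3.1% among control and 17.2% among OE libraries. Library names put the groups in separate series, so a difference between series and one between groups cannot be told apart. Epithelial markers were counted in every library (8 of 9 with at least 10 counts in all 6; Cdx1 had 0), at a summed level of 4150 to 4390 CPM in control against 5400 to 6130 CPM in OE libraries. Of 9 stromal markers none had more than 3 counts in any library, and Col1a2, Col3a1, Dcn, Lum and Pdgfrb were at 0. The endothelial list summed to 4.15 to 5.63 CPM in control against 3.54 to 5.92 CPM in OE libraries, with Cdh5, Cldn5 and Tek at 0.

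The clearest change among the 10 genes was in the ligand Jag1, which was 2.12-fold lower in OE libraries. Rbpj was lower and Hes6 higher, both by less and both with calls that depended on the analysis. Hes1, Notch1, Notch2, Jag2 and Dll1 were counted but did not pass the test (edgeR quasi-likelihood, adjusted p below 0.05 over all genes tested). Dll4 and Atoh1 were at or below 1 count in every library. Of the 8 genes tested, 1 was called higher and 2 lower, against 16.5% higher and 12.7% lower among all genes tested, so the share of calls (37.5%, against 29.2% of all genes) lay near the background. That split depends on the scaling: 1765 of 3118 calls over all genes were higher, against 1536 of 3077 with DESeq2 size factors, 1491 of 3113 without mitochondrial genes and CT010467.1, and 2035 of 3189 with library totals. Hes6, the one member called higher, did not pass under DESeq2 size factors (adjusted p = 0.0605) or without the mitochondrial genes and CT010467.1 (0.0661). For 3 of the 8 genes the control and OE values were fully separate, where 45.7% of all genes tested showed no overlap. The median log2 fold change of the 8 was -0.28, against 0.04 for all genes tested.

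**Figure D1:**
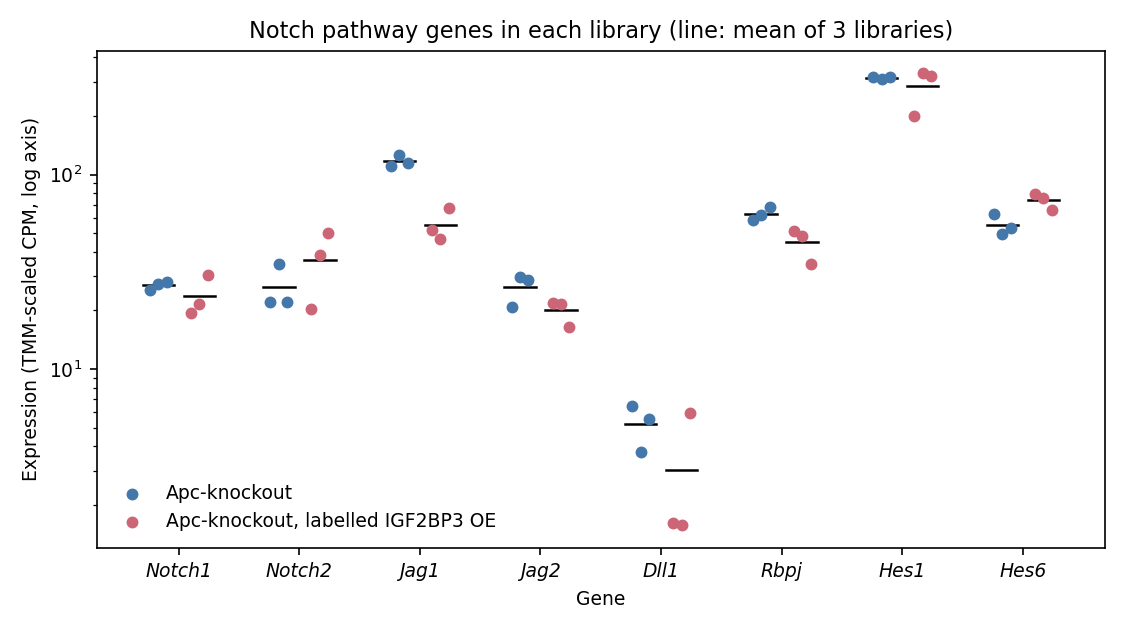
Expression of the 8 genes that passed the count filter, in TMM-scaled CPM on a log axis, with 1 point per library and a line at the mean of each group (blue, control; red, OE). Only Jag1, Rbpj and Hes6 have groups that do not overlap; Dll4 and Atoh1, at most 1 count per library, are left out.

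Because Jag1 and Hes6 moved in opposite directions, the stretches just upstream of these genes are shown, taken from the RefSeq promoter windows of GRCm38.p6 and limited to bases upstream of both the RefSeq and the GENCODE start. Each is written 5′ to 3′. Capitals mark CAGCTG, an E-box that bHLH factors of the ATOH1 class can bind.

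Jag1, chr2:137116645-137116770, minus strand: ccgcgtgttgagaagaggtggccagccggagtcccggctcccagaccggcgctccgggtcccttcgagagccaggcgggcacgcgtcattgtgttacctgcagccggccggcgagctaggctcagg

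Hes6, chr1:91414039-91414288, minus strand: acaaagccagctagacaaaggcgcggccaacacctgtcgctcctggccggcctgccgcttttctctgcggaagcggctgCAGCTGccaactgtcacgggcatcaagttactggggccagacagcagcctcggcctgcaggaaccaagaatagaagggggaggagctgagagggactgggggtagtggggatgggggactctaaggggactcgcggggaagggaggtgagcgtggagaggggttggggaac

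Windows of 300 bases, from 250 before to 50 after the start, were found for 9 of the 10 genes (12 windows); Hes1 had no entry. Motifs were searched on both strands. TGGGAA, the core that RBPJ binds, matched only the windows of Rbpj, with 2 matches in one and 1 in the other (the windows overlap and share that match), against 25.6% of all 32851 windows. CAGCTG was present in the windows of Jag1, Hes6 (1 match in each of 2 windows) and Dll1 (1 of 2 windows), against 16.3% of all windows. In Jag1 its first base lay at -82 from the RefSeq start, which is inside the GENCODE gene and so outside the stretch shown, and in the Hes6 window shown it lay at -171. CACNAG, the N-box that HES repressors bind, was found in windows of Notch1 (3 matches), Notch2, Dll4 and Atoh1 (1 each), Dll1 (1) and Hes6 (2, in its second window), against 42.5% of all windows. The windows of Notch1, Jag2 and Rbpj lie wholly inside the GENCODE gene, as do the first of Dll1 and the second of Hes6. These matches are letters in a window, and no binding was measured.

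Among the ligands, Jag1 had the most counts, and its change was the one that passed the test. Jag1 (ENSMUSG00000027276, minus strand of chromosome 2, 137081456 to 137116644 in GRCm38) encodes the Jagged ligand best known from biliary and vascular development. It was counted at 110.1, 127 and 115 CPM in the control libraries and at 51.9, 46.4 and 67.6 CPM in OE replicates 1 to 3. Each OE library lay below each control library, and the lowest control value was well above the highest OE value. The group means were 117 ± 8.53 and 55.3 ± 11.03 CPM (n = 3, SD), a log2 fold change of -1.08 (95% interval -1.40 to -0.77, SE 0.15, edgeR adjusted p = 0.000343). This call held in all 20 alternatives, with log2 fold changes from -1.25 to -1.0. No annotated gene overlaps Jag1 on either strand. In bulk libraries, fewer cells that express a gene and less of its RNA per cell cannot be told apart.

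Jag2 (ENSMUSG00000002799, minus strand of chromosome 12, 112907819 to 112929776), the other Jagged ligand, was counted at 20.7, 29.6 and 28.6 CPM in control, and at 21.9, 21.6 and 16.5 CPM in OE libraries. The groups overlapped through control replicate 1. The log2 fold change was -0.39 (95% interval -0.83 to 0.05, SE 0.20, edgeR adjusted p = 0.168). The gene has a GC content of 61.9%, and with an offset for GC content the change was -0.68 and passed (edgeR adjusted p = 0.028). Fold changes correlated with GC content across 10679 genes, which are not independent replicates, at a Spearman rho of 0.37. With exonic length the rho was -0.3.

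The Delta-like ligands were scarce. Dll1 (ENSMUSG00000014773, minus strand of chromosome 17, 15367354 to 15376872), the ligand shown by early secretory progenitors, had 14, 8 and 12 counts in control against 4, 4 and 14 in the OE libraries. OE replicates 1 and 2 lay below every control library, while replicate 3 was as high as the highest control. For Dll1 the log2 fold change was -0.80 (95% interval -1.87 to 0.27, SE 0.49, edgeR adjusted p = 0.241), and without OE replicate 3 it was -1.68 and passed (edgeR adjusted p = 0.0219), whereas it was -0.56 without OE replicate 1 (adjusted p = 0.404) and -0.52 without OE replicate 2 (0.505). Dll4 (ENSMUSG00000027314, plus strand of chromosome 2, 119325784 to 119335962) had 1, 0 and 0 counts in control against 0, 0 and 1 in the OE libraries, so no change was detectable at this depth. Dll3 had no count in any library. Dll1 and Dll4 each overlap 1 annotated gene on the opposite strand, and the counting is not stated to use strand.

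Since these 3′ counts do not scale with transcript length, the ligands could also be compared with each other. Jag1 made up 79.9%, 79.2% and 77.1% of the counts summed over Jag1, Jag2, Dll1 and Dll4 in control libraries and 68.8%, 66.7% and 74.8% in OE libraries. The sum itself was 299, 341 and 323 counts in control against 186, 177 and 214 in the OE libraries. Jag1 thus had the most counts of these ligands in every library of both groups, with a smaller share of a smaller sum in the OE ones. The GC content is 48.8% for Jag1 and 61.9% for Jag2, and its part in these shares was not tested. The log2 ratio of Jag1 to Jag2 within a library was 2.17 ± 0.21 in control against 1.46 ± 0.50 in the OE group (n = 3, SD; exact two-sided permutation p = 0.2, adjusted 0.2 over 3 ratios, where 3 against 3 libraries cannot give less than 0.1). OE replicate 3, at 2.04, lay within the control range, so the fall of Jag1 relative to Jag2 was not beyond the spread between libraries.

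The receptors Notch1, Notch2 and Notch3 were counted at similar levels to each other, while Notch4 had few counts. Notch1 (ENSMUSG00000026923, minus strand of chromosome 2, 26457903 to 26516663), a main receptor of crypt progenitors, was counted at 25.4, 27.2 and 28.1 CPM in control, and at 19.5, 21.6 and 30.4 CPM in OE libraries. OE replicates 1 and 2 lay below the control range and replicate 3 above it. The log2 fold change was -0.18 (95% interval -0.61 to 0.25, SE 0.20, edgeR adjusted p = 0.533), and with an offset for exonic length it turned to 0.08 without passing. With the GC offset it was -0.44 (adjusted p = 0.133) and without OE replicate 3 it was -0.38 (0.134). Notch1 overlaps 1 annotated gene on its own and 2 on the opposite strand.

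Notch2 (ENSMUSG00000027878, plus strand of chromosome 3, 98013527 to 98150361), which acts with Notch1 in the crypt, was counted at 22.1, 34.7 and 22.1 CPM in control, and at 20.3, 38.5 and 50.3 CPM in OE libraries. OE replicates 2 and 3 exceeded every control library and replicate 1 was below them all. Its log2 fold change was 0.46 (95% interval -0.16 to 1.09, SE 0.29, edgeR adjusted p = 0.244), and without OE replicate 1 it was 0.70 and passed (edgeR adjusted p = 0.0107). It was 0.17 without OE replicate 3 (adjusted p = 0.669), 0.71 without control replicate 2 (0.151) and 0.25 with the GC offset (0.563). Its coefficient of variation was 27.6% in control and 41.6% in OE libraries, where counting alone gives 13.3% and 10.6%. Gm42819 and Gm42820 overlap Notch2 on its own strand, so its counts may include theirs.

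The log2 ratio of Notch1 to Notch2 was 0.06 ± 0.37 in control against -0.54 ± 0.42 in the OE group (n = 3, SD; exact two-sided permutation p = 0.2, adjusted 0.2), and the groups overlapped. Notch3, a receptor that is itself induced by Notch in other tissues, was counted at 18.4, 19.7 and 24.4 CPM in control, and at 31.2, 25.95 and 35.1 CPM in OE libraries, without overlap. Its log2 fold change was 0.56 (edgeR adjusted p = 0.0434, SE 0.19). That call was lost in 12 of 20 alternatives, among them the GC offset (0.26, adjusted p = 0.353), DESeq2 (adjusted p = 0.169) and the fits without any 1 control library or without OE replicate 1 or 3 (adjusted p from 0.0556 to 0.158). Notch4 had 2, 5 and 3 counts in control and 11, 9 and 4 in OE libraries and was not tested.

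**Figure D2:**
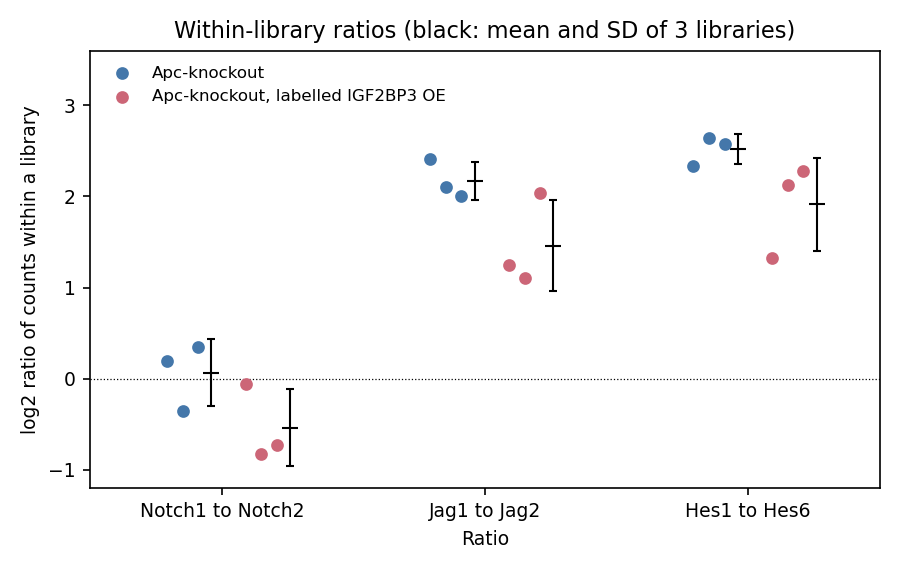
Log2 ratio of the counts of 2 genes within each library, with 1 point per library and the mean and SD of each group in black (blue, control; red, OE). The groups overlap for Notch1 to Notch2 and for Jag1 to Jag2, and do not overlap for Hes1 to Hes6.

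In the nucleus, Rbpj (ENSMUSG00000039191, plus strand of chromosome 5, 53466152 to 53657362), which recruits either the cleaved receptor or corepressors to DNA, was lower in OE libraries. It was counted at 58.1, 61.9 and 67.7 CPM in control, and at 51.5, 48.4 and 34.7 CPM in OE libraries. The groups did not overlap, and OE replicate 3 was the lowest. The log2 fold change was -0.48 (95% interval -0.82 to -0.13, SE 0.16, edgeR adjusted p = 0.039). The call was lost in 10 of 20 alternatives, among them DESeq2 (-0.52, adjusted p = 0.0623), the GC offset (-0.31, adjusted p = 0.209), the exonic length offset (-0.24, adjusted p = 0.329) and every fit that left out 1 library except that without OE replicate 1 (adjusted p from 0.0633 to 0.152). The annotation holds 2 Rbpj pseudogenes and 2 genes on the opposite strand within Rbpj, so reads may be shared.

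Hes1 (ENSMUSG00000022528, plus strand of chromosome 16, 30064384 to 30067796), the repressor by which Notch holds back ATOH1, was the most abundant of the 10 genes in both groups. It was counted at 316, 311 and 317 CPM in control, and at 200.5, 332 and 321 CPM in OE libraries. The control libraries were nearly equal, OE replicates 2 and 3 lay just above them, and replicate 1 lay far below. The coefficient of variation was 1.11% in control and 25.6% in OE libraries, where counting alone gives 3.84% and 3.78%. Its log2 fold change was -0.15 (95% interval -0.49 to 0.20, SE 0.16, edgeR adjusted p = 0.521) and did not pass in any of 20 alternatives. Without OE replicate 1 it was 0.00 at 2 decimals, so the negative value rested on that library. Over the 6 libraries the 3 tested genes whose log2 CPM followed Hes1 most closely were Syvn1 (Pearson r = 0.997), Chmp5 (0.996) and Cox7c (0.993), and 412 of 10686 genes reached 0.9. Among the 10 genes themselves the highest value was 0.681, for Notch1. With 6 points, of which OE replicate 1 stands apart, these values describe the libraries only.

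Hes6 (ENSMUSG00000067071, minus strand of chromosome 1, 91411483 to 91414038), a relative of Hes1 that can oppose it and is found in secretory and neural precursors, was higher in OE libraries. It was counted at 62.7, 49.7 and 53.0 CPM in control, and at 79.8, 75.9 and 66.0 CPM in OE libraries. The groups did not overlap, with control replicate 1 close to OE replicate 3. The log2 fold change was 0.42 (95% interval 0.12 to 0.72, SE 0.14, edgeR adjusted p = 0.036). The call was lost in 11 of 20 alternatives, among them DESeq2 (0.38, adjusted p = 0.15), the GC offset (0.13, adjusted p = 0.516; the gene has a GC content of 61.7%), the exonic length offset (0.17, adjusted p = 0.407), and the fits without control replicate 2 or 3 or OE replicate 1 or 2 (adjusted p from 0.0985 to 0.159). The log2 ratio of Hes1 to Hes6 was 2.34, 2.64 and 2.58 in control and 1.33, 2.13 and 2.28 in OE libraries. All 3 OE libraries lay below the control range (difference in means -0.61, exact two-sided permutation p = 0.1, the smallest that 3 against 3 libraries can give, adjusted 0.2), and without OE replicate 1 the difference was -0.31.

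Atoh1 (ENSMUSG00000073043, plus strand of chromosome 6, 64729125 to 64731245) had 1, 0 and 0 counts in control against 0, 1 and 0 in the OE libraries. These values lie under the limit of 3 counts in every library, so neither its presence in a few cells nor a change was detectable at this depth, and ratios that involve Atoh1 or Dll4 were not computed. Ratios that involve Dll1 were not computed either, since it had fewer than 10 counts in some libraries.

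Ordered by mean level in control libraries, Hes1 came first, followed by Jag1, Rbpj, Hes6, Notch1, Notch2, Jag2 and Dll1. The ranges of Rbpj and Hes6 overlapped in that order, as did those of Notch1, Notch2 and Jag2. In OE libraries the order was Hes1, Hes6, Jag1, Rbpj, Notch2, Notch1, Jag2 and Dll1, and from Hes6 down to Jag2 each gene overlapped the next. Jag1 thus stood apart from Rbpj and Hes6 in control but not in OE libraries.

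**Figure D3:**
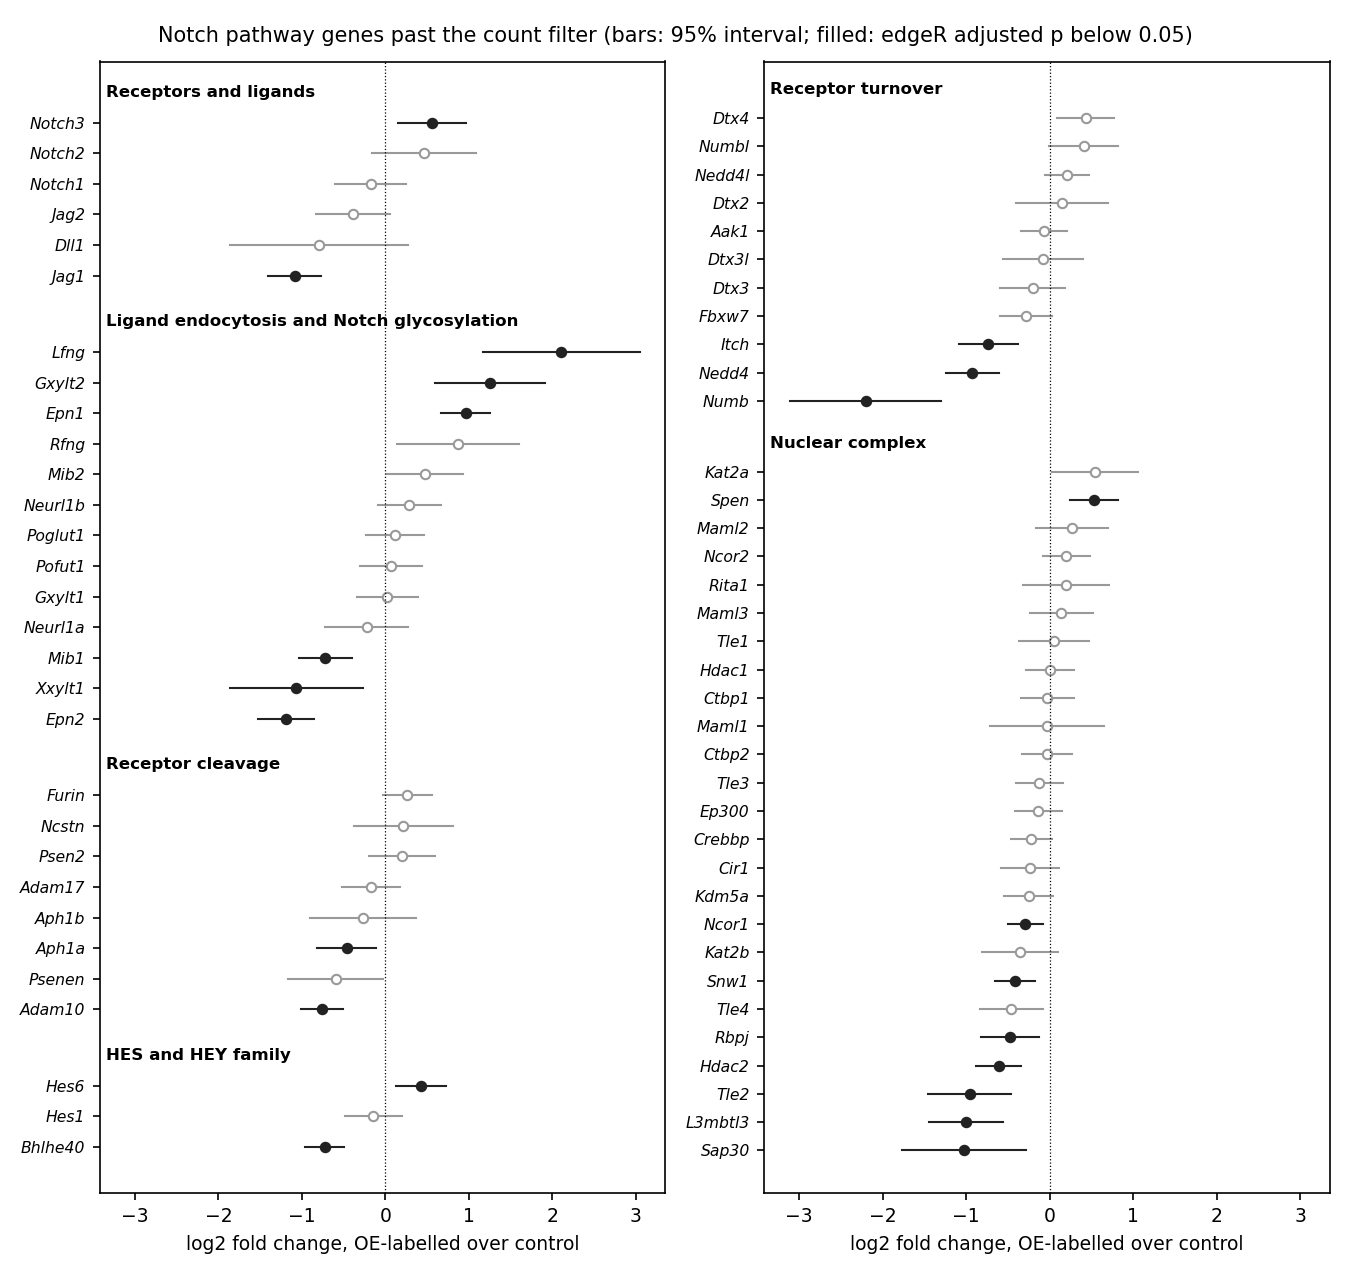
Log2 fold change of OE over control for the pathway genes shown, all past the count filter, with its 95% interval; filled points have an edgeR adjusted p below 0.05. Calls fall on both sides of 0 among genes that act on ligands and glycans, and all 3 calls among receptor turnover genes are negative. Of all genes tested, 16.5% were called higher and 12.7% lower.

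Over all receptors and ligands, 1 of 6 tested genes was higher and 1 lower, or 33.3% called, against 29.2% of all genes. Genes that act around the receptors were then examined in lists. Among genes for ligand endocytosis and Notch glycosylation, 3 of 13 tested were higher and 3 lower (median log2 fold change 0.12). Of these 13, 46.2% were called, against 29.2% of all genes. Lfng, which encodes a fringe enzyme that adds a sugar to Notch and alters its response to Delta and Jagged ligands, had 7, 2 and 4 counts in control against 29, 16 and 20 in the OE libraries. Each OE value was more than any control value, with a log2 fold change of 2.11 (edgeR adjusted p = 0.00365, SE 0.43). Gxylt2, which extends another Notch sugar, rose by 1.25 in log2 units (edgeR adjusted p = 0.00877, SE 0.30) from 9, 9 and 11 counts to 25, 22 and 32. Xxylt1, which acts next on that sugar, fell by 1.07 in log2 units (edgeR adjusted p = 0.0451, SE 0.37). Its call was lost in 6 of 20 alternatives, among them the fits without any 1 control library or OE replicate 2 (adjusted p from 0.0667 to 0.168).

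Mib1, the ubiquitin ligase that lets ligands be internalised and so pull on the receptor, went from 68.8 ± 1.08 CPM in control to 41.8 ± 7.39 CPM in OE libraries (n = 3, SD), a log2 fold change of -0.72 (edgeR adjusted p = 0.00344, SE 0.15). The epsins, endocytic adaptors that act with it, went opposite ways. Epn2 fell from 50.5 ± 1.49 to 22.1 ± 2.30 CPM (n = 3, SD; edgeR log2 fold change -1.19, SE 0.15, adjusted p = 0.000263), and Epn1 rose from 62.1 ± 4.27 to 121 ± 17.95 CPM (n = 3, SD; edgeR log2 fold change 0.96, SE 0.14, adjusted p = 0.000437). The calls of Lfng, Gxylt2, Mib1, Epn1 and Epn2 held in all 20 alternatives.

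Of the genes that cleave Notch, 2 of 9 tested were lower and 0 higher (median -0.17), or 22.2% called, against 29.2% of all genes. Adam10, the protease that makes the first cut after ligand binding, fell from 165 ± 7.58 to 97.6 ± 9.22 CPM (n = 3, SD), which is -0.76 in log2 units (edgeR adjusted p = 0.00061, SE 0.11), and the call held in all 20 alternatives. Aph1a, a subunit of the γ-secretase that makes the final cut, had a log2 fold change of -0.47 (edgeR adjusted p = 0.0463, SE 0.16). Its call was lost in 11 of 20 alternatives, including DESeq2 (adjusted p = 0.119) and the fits without any 1 control library or without OE replicate 2 or 3 (adjusted p from 0.0652 to 0.201).

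Among genes of receptor turnover, 3 of 11 tested were lower and 0 higher (median -0.08), so that 27.3% were called, near the 29.2% of all genes, and these calls held in all 20 alternatives. Numb, which encodes an adaptor that restrains Notch in the daughter cell that inherits it, had 29, 20 and 17 counts in control against 8, 2 and 6 in the OE libraries (edgeR log2 fold change -2.20, SE 0.42, adjusted p = 0.00232). All OE values were below all control values, at low counts. Nedd4, an abundant ubiquitin ligase with Notch among its substrates, fell from 1049 ± 68.2 to 552 ± 140.2 CPM (n = 3, SD; edgeR log2 fold change -0.93, SE 0.15, adjusted p = 0.000838). Itch, a ligase of the same family, fell from 44.0 ± 2.08 to 26.3 ± 4.29 CPM (n = 3, SD; edgeR log2 fold change -0.74, SE 0.16, adjusted p = 0.00549).

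In the nuclear complex, which includes Rbpj, 7 of 25 tested genes were lower and 1 higher (median -0.14), against 12.7% and 16.5% of all genes tested with the same scaling, a split that other scalings move. L3mbtl3, a corepressor that binds RBPJ, fell from 26.1 ± 4.33 to 13.01 ± 0.344 CPM (n = 3, SD; edgeR adjusted p = 0.00329), Hdac2 fell by 0.61 in log2 units (edgeR adjusted p = 0.00336, SE 0.12) and Tle2 by 0.96 (edgeR adjusted p = 0.00862, SE 0.23). The single increase was that of Spen, a large corepressor of RBPJ, from 97.3 ± 11.8 to 141 ± 17.9 CPM (n = 3, SD; edgeR log2 fold change 0.53, SE 0.13, adjusted p = 0.00994). The call of Spen was lost with the GC offset (0.26, adjusted p = 0.165), and without control replicate 1 (adjusted p = 0.0572) or 3 (0.0705). That of Tle2 was lost without control replicate 3 (adjusted p = 0.0523). The calls of Sap30, Snw1 and Ncor1, also lower, were lost in 8, 5 and 9 of 20 alternatives. The coactivator genes Maml1, Maml2 and Maml3 did not pass.

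Genes known as Notch targets showed no common direction: of 8 tested, 2 were higher and 2 lower (median 0.02). The share called was 50.0%, against 29.2% of all genes. Nrarp, a feedback inhibitor that Notch induces in many tissues, was counted at 19.8, 11.3 and 14.3 CPM in control, and at 4.46, 7.08 and 10.6 CPM in OE libraries. Its groups did not overlap (edgeR log2 fold change -1.04, SE 0.32, adjusted p = 0.0289), and its call was lost in 3 of 20 alternatives, without control replicate 1 (-0.80, adjusted p = 0.145), control replicate 3 (0.0747) or OE replicate 2 (0.0745). Sox9, a crypt transcription factor, was counted at 351, 346 and 333 CPM in control, and at 581, 520.2 and 439 CPM in OE libraries (edgeR log2 fold change 0.58, SE 0.11, adjusted p = 0.00277). Olfm4, a stem cell gene that depends on Notch, had 11, 10 and 9 counts in control against 9, 12 and 25 in the OE libraries (95% interval of the log2 fold change -0.47 to 1.33, edgeR adjusted p = 0.468). Besides these, Notch3 was higher, and Myc lower with a call lost in 6 of 20 alternatives: DESeq2, library totals, and the fits without any 1 control library or OE replicate 2 (adjusted p from 0.062 to 0.21).

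The other HES and HEY genes were hardly counted. Hes2, Hes7, Hey1 and Hey2 had at most 2 counts in any library, and Hes3, Hes5, Heyl and Helt had none. Bhlhe41 had 5, 10 and 10 counts in control against 1, 6 and 5 in the OE libraries and was not tested. Bhlhe40, a more distant bHLH repressor gene, was the one other member of this family tested. It was counted at 189, 191 and 196 CPM in control, and at 106, 116 and 125 CPM in OE libraries, without overlap (edgeR log2 fold change -0.73, SE 0.11, adjusted p = 0.000591). That call held in all 20 alternatives.

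**Figure D4:**
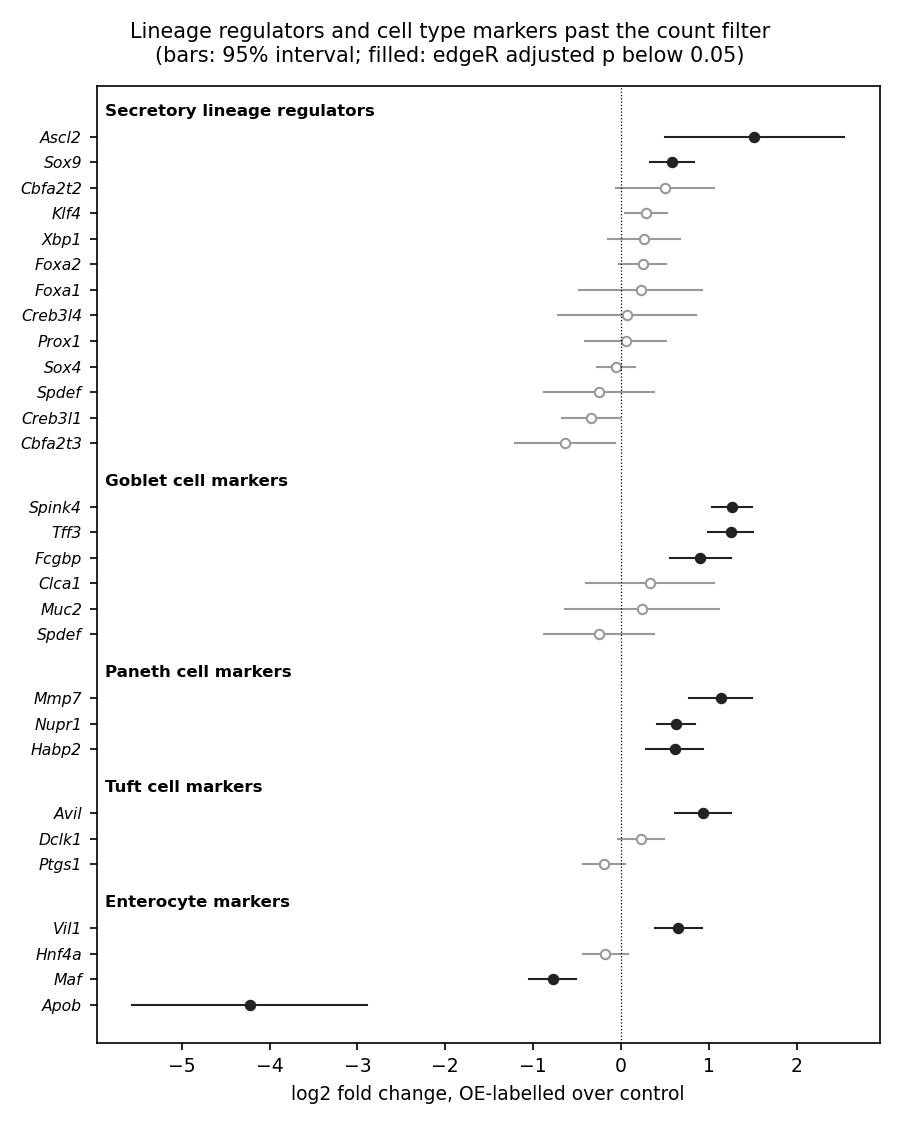
Log2 fold change of OE over control, with its 95% interval, for lineage regulators and cell type markers that passed the count filter; filled points have an edgeR adjusted p below 0.05. The 3 goblet and 3 Paneth calls are all positive, while Spdef and Muc2 lie near 0 with intervals that span it. Of all genes tested, 16.5% were called higher and 12.7% lower.

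Among secretory lineage regulators 2 of 13 tested were higher and 0 lower (median 0.23), or 15.4% called, against 29.2% of all genes, and 9 of the 28 listed had no count in any library, Gfi1 and Neurog3 among them. The increases were those of Sox9 and of Ascl2, a WNT-induced stem cell factor with 10, 1 and 12 counts in control against 33, 26 and 17 in the OE libraries (edgeR log2 fold change 1.52, SE 0.47, adjusted p = 0.0292). The call of Ascl2 was lost in 6 of 20 alternatives, which were the GC and length offsets and the fits without control replicate 1 or 2 or OE replicate 1 or 2 (adjusted p from 0.0521 to 0.089). Spdef, the goblet and Paneth maturation factor that ATOH1 induces, had 17, 17 and 14 counts in control against 17, 17 and 12 in the OE libraries (95% interval of the log2 fold change -0.87 to 0.37, edgeR adjusted p = 0.545).

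Some genes that mature secretory cells express were counted above the limit, which Atoh1 did not reach. At most 3 counts in every library were found for 4 of 12 goblet, 9 of 12 Paneth and 13 of 14 enteroendocrine markers. Of 6 goblet markers tested 3 were higher (Spink4, Tff3 and Fcgbp, log2 fold changes 1.27, 1.25 and 0.90) and 0 lower, while the mucin gene Muc2 had 4, 13 and 9 counts in control against 12, 12 and 11 in the OE libraries. Of 12 Paneth markers 3 were tested and all 3 were higher (Mmp7, Nupr1 and Habp2), but Lyz1, Lyz2, Ang4, Pla2g2a and all 4 listed defensins had no count in any library. The call of Habp2 was lost with the GC offset (adjusted p = 0.0573), and without control replicate 1 (0.0577) or 3 (0.0509). These 3 genes are not specific to Paneth cells. The summed goblet list ran from 598 to 623 CPM in control and from 1280 to 1500 CPM in OE libraries, most of it Spink4. None of 14 enteroendocrine markers was tested, and their sum was at most 1.88 CPM in control against 2.36 CPM in OE libraries. Of the tuft list 1 of 3 genes tested was higher and 0 lower, or 33.3% called, against 29.2% of all genes. Avil rose (log2 fold change 0.93, edgeR adjusted p = 0.000721), while Dclk1 had 0.22 (edgeR adjusted p = 0.182) and Ptgs1 -0.19 (edgeR adjusted p = 0.216). Pou2f3, the factor that sets tuft fate, had at most 6 counts.

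On the absorptive side, 4 of 18 enterocyte markers were tested, and 75.0% of these were called, against 29.2% of all genes. Vil1 was higher (log2 fold change 0.65, edgeR adjusted p = 0.0022), Maf lower (-0.78, edgeR adjusted p = 0.000874), and Apob, which had 10, 13 and 16 counts in control and at most 1 count in OE libraries, was lower (edgeR adjusted p = 0.000532). Alpi, Fabp1, Apoa1, Apoa4, Sis, Anpep and Krt20 had no count in any library. Markers listed for other cell types also rose: S100b (log2 fold change 1.14, edgeR adjusted p = 0.000129) and Csf1r (0.68, edgeR adjusted p = 0.0061). The neural list otherwise had Elavl4, Gfap and Sox10 at 0, and the immune list Adgre1, Cd3e, Cd79a and Lyz2 at 0. Among crypt stem cell markers 2 of 10 tested were higher (Prom1 and Ascl2) and 0 lower, and among epithelial markers 4 of 8 were higher, with Krt18, Krt8 and Krt19 at log2 fold changes of 0.92, 0.74 and 0.66, and 1 lower (Cldn7, -1.09). The share called was 20.0% of the stem cell and 62.5% of the epithelial genes tested, against 29.2% of all genes. The one endothelial gene tested did not pass. The part of other cell types in the results was not tested.

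**Figure D5:**
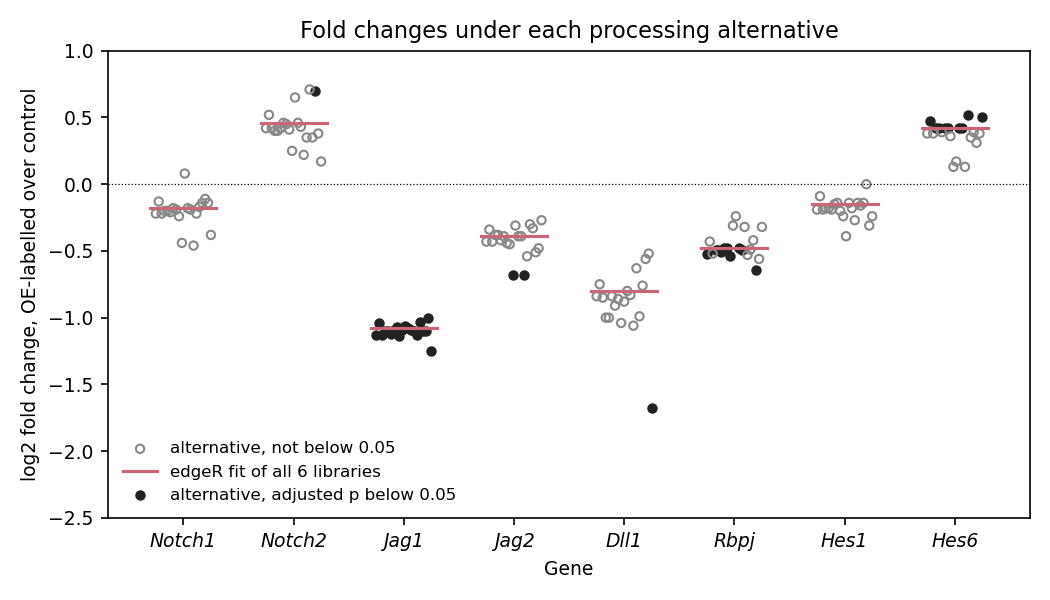
Log2 fold change of each of the 8 tested genes under every processing alternative (points; filled where the adjusted p is below 0.05) and in the fit of all 6 libraries (line). Jag1 stays between -1.25 and -1.0 and filled throughout, whereas Hes6 and Rbpj hold filled and open points.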

How the data were processed

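Per the labels' protocols, RNA from each of the 6 organoid samples was made into QuantSeq 3′ forward libraries, which are read near the polyadenylated end. The deposited table holds estimated counts for each gene, without normalization. The submitters' processing notes name STAR, HTSeq, mm10 and GRCm38; the annotation, strand setting and treatment of multi-mapping reads and molecular identifiers are not given in the sources used here. Of the values above 0, 3.1% were fractional (none in the 10 genes); counts were rounded. Groups came from sample titles and columns were matched through library names. GENCODE M21 (GRCm38) held 99.3% of the identifiers and was used for position, length and GC content.

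OE was compared with control over all 6 libraries in edgeR 4.0.16 under R 4.3.3 by its quasi-likelihood F-test (filterByExpr, TMM, Benjamini-Hochberg over 10687 genes, threshold 0.05), without covariates. The standard error is the log2 fold change divided by the square root of F. Alternatives were other scalings, filters and offsets (loess, span 0.5), DESeq2 1.42.0, limma-voom (limma 3.58.1), equal depth, a replicate block and each library left out. The scripts were tested on simulated counts. The members and lists were chosen with earlier results of these data known. Named were the 10 genes, all receptor, ligand, HES and HEY genes, up to 3 genes per list and direction with the smallest p past the threshold, and the 3 genes closest to Hes1; Muc2, Dclk1, Ptgs1, Sap30, Snw1, Ncor1, Olfm4, Spdef, Gfi1, Neurog3, Pou2f3, the Maml genes and markers without counts were added after their values were seen. Some listed genes are counted in their lists but not reported here by name.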

Additional observations from a re-analysis of the deposited data

How the results depend on the processing

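Of 159 values of the 8 tested genes under alternatives, 133 had the same sign and call, 21 lost the call (Hes6 11, Rbpj 10), 4 newly passed and 1 changed sign (Notch1, 0.08 with the exonic length offset, adjusted p = 0.779). The number of the 10 genes called was 1 with DESeq2 and 1 with the exonic length offset, where Jag1 alone passed, against 3 in the fit of all libraries (over all genes 19.6% and 24.0% were called, against 29.2%), and between 1 and 3 with any single library omitted. The number of genes called over the whole table lay between 1748 and 3532 with any single library omitted, against 3118, and was lowest when a control library was omitted (1893 without control replicate 1, 1837 without 2, 1748 without 3). The GC offset gave 2473 calls, of which 1996 were shared. A replicate block gave 3112 genes called and 3 of the 10 (Jag1 -1.09, adjusted p = 0.000373; Hes6, adjusted p = 0.034), and the block changed no call of the 10. With the block and the GC offset together, the immune marker Csf1r lost its call (0.45, adjusted p = 0.0522). Deviations of equally numbered libraries correlated at 0.1, 0.02 and 0.07, against a mean of -0.03 between other numbers. Replicates 1 and 3 matched their own number best and replicate 2 did not, so the numbers were not taken to pair the samples. The within-library ratios moved by less than the SD of the OE libraries in every alternative, which is a wide limit. For Notch1 to Notch2, Jag1 to Jag2 and Hes1 to Hes6 that SD was 0.42, 0.50 and 0.51. The differences between groups were -0.60, -0.71 and -0.61, and the last became -0.31 without OE replicate 1. Depth leaves Dll4 and Atoh1 without a measurable level, and Dll1 rests on 4 to 14 counts per library. The causes of these shifts were not tested.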
